A study of Mus musculus with 24 samples.

Results

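Many genes have a second transcript that is read from the other DNA strand of the same locus, and the mouse nomenclature names it after the gene with the ending os, for opposite strand. The 52 rows described here are all rows of the liver count table whose symbol is another row's symbol plus os, os1, os2 or os3, with at least 20 counts summed over the 24 libraries, leaving out Zfhx2os and Acss2os. They were taken from 24421 rows in all. Of 154 such named rows, 61 had 0 counts, 39 had 1 to 19, and 54 had 20 or more. The gene that gives the name is called the host. The rows were selected on these summed counts, so the abundance of the rows is a description without a test. The choice asked for counts in the opposite-strand row and not in the host, which by itself favours pairs with a high opposite-strand row. Just inside the minimum were Dnmt3aos and Ccpg1os with 26 counts each and Gata5os with 27. Just outside were Map2k3os and Pitpnm2os1 with 18 counts each and Chd3os with 16.

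The libraries are total liver RNA, depleted of ribosomal RNA, of male C57Bl/6J mice. Groups written CD ate the control diet with 13% fat, and groups written WD ate the Western-style diet with 42% fat. Groups with +VC inhaled vinyl chloride, an industrial monomer that the liver oxidises, at about 0.85 ± 0.1 ppm for 6 hours on 5 days a week during 12 weeks, and the other groups breathed air. The w12 groups were taken at the end of the 12 weeks and the m12 groups after 9 further months without exposure. The diets were fed for 12 weeks in the w12 groups and for 12 months in the m12 groups. The design thus asks how diet, an earlier exposure and time act on the liver, with 3 libraries in each of the 8 groups. No age at the start of feeding is given here, and whether separate animals gave the libraries is not stated in the labels, so that the p-values reflect the spread among libraries, which may be technical.

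Opposite-strand transcripts are mostly long RNAs without a protein, made at a promoter that faces away from the host's promoter, inside a host intron, or downstream of the host's end. Many are short-lived nuclear RNAs that are ended early and removed by the nuclear exosome, an RNA-degrading complex. Some are known to change the output of the host gene by competing for its promoter or its splicing, as the Zeb2 antisense RNA does in epithelial cells, and for most of the others no role is established. A few rows with the os ending are ordinary protein-coding neighbours of their host. In GENCODE M21 (GRCm38, the mm10 build), 49 of the 52 pairs could be placed, and Ggnbp2os, Peg3os and Msx1os were not placed. Of the 49 placed rows, 37 were annotated antisense, 4 lincRNA, 1 processed transcript, 1 transcribed pseudogene and 6 protein-coding. They lay head to head with the host in 20 pairs, inside the host in 14 and tail to tail in 13, and the host lay inside the opposite-strand gene in 2 (Plet1os and Zfp85os). In 42 of the 49 pairs an exon of one gene overlapped an exon of the other.

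The sequences that matter most for the results are the starts of the most abundant row and of the rows that changed most. They are the 250 bases upstream of the RefSeq start site (GRCm38.p6), written 5' to 3' on the gene's own strand. Capitals mark CG pairs and matches, on either strand, to 3 motifs. The TATA box was searched as TATAAA. For the GC box the letters were GGGCGG, whose matches can share CG pairs. The third motif, an ETS-type site, was read as CCGGAAG. The windows are chr17:47687360-47687609 (plus strand) for Tomm6os, chr11:119834366-119834615 (minus strand) for Rptoros, chr16:55974618-55974867 (minus strand) for Zbtb11os1, chr16:55973554-55973803 (plus strand) for its host Zbtb11, and chr9:50494275-50494524 (plus strand) for Plet1, the host whose pair ratio changed most clearly.
Tomm6os: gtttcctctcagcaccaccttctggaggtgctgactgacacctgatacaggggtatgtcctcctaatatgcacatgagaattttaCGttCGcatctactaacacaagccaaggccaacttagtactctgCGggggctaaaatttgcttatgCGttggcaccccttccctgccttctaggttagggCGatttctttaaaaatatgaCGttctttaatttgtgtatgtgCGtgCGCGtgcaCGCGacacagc
Rptoros: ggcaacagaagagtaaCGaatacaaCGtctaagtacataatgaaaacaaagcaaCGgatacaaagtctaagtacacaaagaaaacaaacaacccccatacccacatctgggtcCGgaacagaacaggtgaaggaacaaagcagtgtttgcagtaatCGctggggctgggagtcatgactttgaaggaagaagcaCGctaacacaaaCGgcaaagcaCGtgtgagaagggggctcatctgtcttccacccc
Zbtb11os1: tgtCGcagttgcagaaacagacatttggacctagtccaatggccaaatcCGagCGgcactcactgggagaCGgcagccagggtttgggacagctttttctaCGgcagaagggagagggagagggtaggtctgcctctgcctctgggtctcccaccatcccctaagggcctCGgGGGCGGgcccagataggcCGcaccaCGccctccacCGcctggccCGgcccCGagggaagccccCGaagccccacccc
Zbtb11: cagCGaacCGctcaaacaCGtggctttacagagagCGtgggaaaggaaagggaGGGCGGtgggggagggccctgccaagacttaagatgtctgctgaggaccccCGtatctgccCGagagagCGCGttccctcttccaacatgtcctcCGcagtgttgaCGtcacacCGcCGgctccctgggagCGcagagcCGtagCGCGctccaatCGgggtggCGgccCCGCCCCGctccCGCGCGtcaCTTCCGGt
Plet1: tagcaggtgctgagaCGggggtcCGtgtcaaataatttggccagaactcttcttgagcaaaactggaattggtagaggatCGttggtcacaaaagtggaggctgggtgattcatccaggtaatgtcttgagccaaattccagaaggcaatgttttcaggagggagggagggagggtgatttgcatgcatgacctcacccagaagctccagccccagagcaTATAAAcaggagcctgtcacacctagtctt

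The window of the host Zbtb11 held 25 CG pairs, a GC box and the ETS-type letters, whereas that of Zbtb11os1 held 13 CG pairs and a GC box. Tomm6os had 11 CG pairs and Rptoros 8, and neither window held any of the 3 motifs. The Plet1 window held 3 CG pairs and a TATA box. RefSeq held 43 windows for 40 of the 52 opposite-strand genes and 72 windows for 47 hosts. The median window of the opposite-strand genes held 6 CG pairs and that of the hosts 14.5, against 6 over all 32851 windows of the table. A GC box stood in 32.56% of the opposite-strand windows, 52.78% of the host windows and 32.74% of all windows. TATAAA stood in 2 of the 43 opposite-strand windows (4.651%), 5.556% of the host windows and 12.37% of all windows. CCGGAAG stood in 5 of the 43 (11.63%), 15.28% of the host windows and 6.907% of all windows. The 18 windows of the rows that fell on Western diet at 12 months, which cover 15 genes, had a median of 6.5 CG pairs. A match is a run of letters and not a known binding site.

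Total counts ran from 126160 to 962493 in 23 of the 24 libraries, and the median of all 24 was 379638. The third w12_WD library held 607 counts, 9 of them in these rows and 0 in their hosts, and it was left out of the tests, so w12_WD has 2 libraries below. At these depths a row with 20 counts over all libraries has about 1 count per library, and a 0 in a library allows up to 3 counts. Intervals of this kind cover counting error only. The hepatocyte list of 16 markers (Alb, Apoa1, Ttr and others, with Ass1 at 0 counts) summed to 4206 to 46220 CPM (each count divided by the library's total and scaled to a common depth) in every library, and the lymphocyte list of 9 markers to at most 37.4 CPM. How the counting treated strand is unknown here, and the kit named in the labels does not mark strand. Where exons of a pair overlap, reads of the host and of the opposite-strand gene therefore cannot be told apart from the counts, and this bears on every level below.

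Some counts of the table are given here because of the doubt about strand, and these genes were chosen after their values were seen. Over the 23 libraries Ass1, a urea cycle enzyme abundant in hepatocytes, had 0 counts, Gapdh had 110, the ribosomal gene Rplp0 530 and Actb 843. Others of the same choice of genes were higher: Cps1 had 1766 counts, Eef1a1 8412 and Apoa2 9351. Of the 10 protein-coding rows with most counts, 8 had exons over a gene of the other strand, and in those 8 the other gene had the lower count. Rows picked for the most counts nearly always exceed the gene opposite them. That direction was therefore set by the choice, also in the examples that follow. Nop9 had 176355 counts and the lipid droplet gene Cideb opposite it 799. Snx22 had 128280 counts and the cyclophilin gene Ppib opposite it 544, and Tardbp had 115299 and the complement protease gene Masp2 5393. If the reads carried strand and were counted with the opposite setting, an opposite-strand row would hold reads of its host or of another gene on the host's strand, each ratio below would turn, and the changes below would be changes of those genes. The labels name a kit that does not mark strand, no reads were examined, and which reading holds was not tested. The values below are therefore values of table rows and not levels of antisense RNA.

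The 52 rows held 93400 counts in the 23 libraries, 1.08536% of all counts, and their hosts held 25883, or 0.300776%. The opposite-strand row had more counts than its host in 38 of 52 pairs. Per kilobase of exon, which allows levels of different genes to be set side by side, the opposite-strand row was the higher one in 42 of 49 placed pairs, at least 10-fold in 28, and the median ratio was 24.2. The host was at least 10-fold higher in 1 pair, Ccpg1, a receptor for autophagy of the endoplasmic reticulum. Tomm6os, beside the gene of a small subunit of the mitochondrial import pore, held 29428 counts, 31.5% of all counts of the 52 rows, and stood at 1162 CPM per kb against 17.0 for Tomm6. Ino80dos, head to head with a subunit gene of the INO80 chromatin remodeller, stood at 576 CPM per kb, while Ino80d had 16 counts in all 23 libraries. Ppifos, tail to tail with the gene of cyclophilin D of the mitochondrial permeability pore, stood at 607 CPM per kb against 0.806 for Ppif. Scpep1os, beside a serine carboxypeptidase gene, stood at 618 against 4.16 CPM per kb. Exons of 9 of the rows also overlapped a gene other than the host on the opposite strand, which could supply counts in the same way. These were Ndufs1 for Ino80dos, Prickle4 for Tomm6os, Ccdc144b for Mccc1os, Znf512b for Uckl1os, Rsbn1 for Phtf1os, Sin3a for Man2c1os, Ints2 and Med13 for Brip1os, Unc45b for Slfn5os and Ndufb6 for Toporsos. Counts were concentrated in few rows: the top 5 held 63.9%, 17 rows had 1000 or more counts and 16 had under 100.

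The coding status of the opposite-strand gene divided the pairs. Among the 43 non-coding rows, 40 were higher than the host per kb, with a median ratio of 34.1. Among the 6 protein-coding rows, 2 were higher and the median ratio was 0.648. Cebpzos stood at 444 CPM per kb against 184 for Cebpz, a nucleolar factor of ribosome assembly. Toporsos stood at 49.3 against 89.2 for Topors, a ubiquitin and SUMO ligase, and Wdr83os at 12.7 against 39.0 for the scaffold protein gene Wdr83. Far1, the fatty acyl-CoA reductase of ether lipid synthesis, Slc7a6, an amino acid transporter gene, and Gata5, a transcription factor gene, had 0 counts in the 23 libraries, while Far1os had 95, Slc7a6os 88 and Gata5os 27. The opposite-strand row was higher in 14 of 14 pairs in which it lay inside the host, in 12 of 13 tail-to-tail pairs and in 15 of 20 head-to-head pairs. With an exon overlap it was higher in 38 of 42 pairs with a median ratio of 25.4, and with no exon overlap in 4 of 7 with a median ratio of 1.07. The same held outside the named rows: of 271 other non-coding rows with at least 20 counts and exons over a coding row, 249 were higher per kb than that coding row, with a median ratio of 30.9. A high opposite-strand level was thus no property of the rows with this name alone, and the part of the strand setting in it was not tested.

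**Figure D1:**
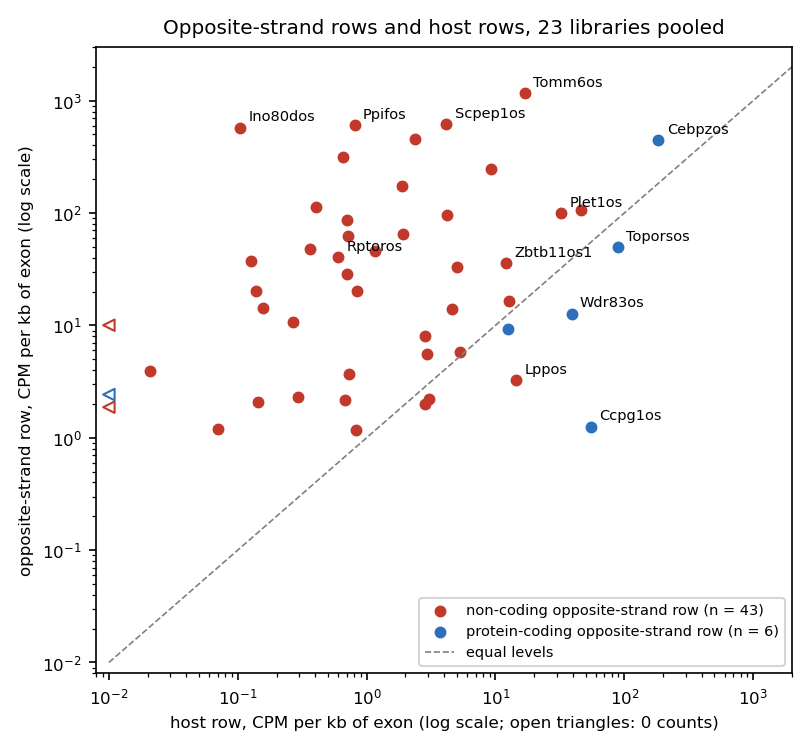
Level of each placed opposite-strand row (vertical axis) against its host (horizontal axis), in CPM per kb of exon pooled over 23 libraries, both on log scales. Red points are non-coding and blue points protein-coding opposite-strand rows, open triangles at the left edge are hosts with 0 counts, and the dashed line marks equal levels. Of the 49 points, 42 lie above the line, and 4 of the 6 blue ones lie below it.

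After 12 months without VC, most opposite-strand rows that could be tested were lower on the Western diet. Rows with too few counts for a test went both ways and are given further below. Of the 38 rows that passed the expression filter, 18 fell on Western diet and 0 rose (edgeR's quasi-likelihood test, Benjamini-Hochberg adjustment over 4764 rows, adjusted p under 0.05). Among all 4764 rows 21.7% were called in this comparison, 10.8% as lower and 10.9% as higher. The median log2 fold change of the 38 rows was -1.09, against 0.11 over all rows, and 34 of the 38 lay below 0, against 46.1% of all rows. The drop was shared with other antisense rows: of 128 rows annotated antisense that have no os name, 47.7% were called lower and 3.12% higher, with a median of -0.89. Of 1802 tested rows with an opposite-strand exon overlap 17.3% were called lower and 6.88% higher, and of 2910 without one 6.53% were called lower and 13.5% higher. Among the 22 hosts that passed the filter, 6 fell and 1 rose. With RLE size factors the median over all rows was 0.25 and 16 of the 38 rows were called lower, and with library totals and no scaling factors, an alternative chosen after seeing the data, 11 fell and 1 rose. That last scaling moved the median over all rows to 0.55 and that of the 38 rows to -0.64, and it called 901 of all rows higher and 253 lower, against 519 and 516 with TMM factors. A change of scaling moves all rows by about the same amount. The distance of the 38 rows from the median of all rows is therefore no check of the scaling. The TMM factors were above 1 in all 3 m12_WD libraries and below 1 in all 3 m12_CD libraries, which enlarges each fitted drop. For the 18 rows the median fitted log2 fold change was -1.31, and the median log2 ratio of mean CPM was -0.86, from -3.03 to -0.39, with all 18 below 0. Whether a drop is one of antisense RNA or of the genes on the other strand cannot be told apart here. In a fit of the rows with an exon overlap alone, chosen after seeing the data, 17 of 37 fell, 1 (Plet1os) rose, and 13.7% of the rows in that fit were called lower.

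Among the 18 called rows Rptoros and Zbtb11os1 had the largest fitted drops. Rptoros lies inside Rptor, the gene of the mTORC1 scaffold raptor, at chr11:119820812-119834365 on the minus strand, with 84 bases of exon overlap. Its libraries were at 30.1, 44.6 and 62.1 CPM in m12_CD and at 0, 19.6 and 0 CPM in m12_WD, so the groups did not overlap, and 1 m12_WD library held all 8 counts of that group. The fitted log2 fold change was -3.61 (SE 0.668), 12.2-fold lower, with an edgeR adjusted p of 0.000251. At 12 weeks it stood between 49.7 and 130.3 CPM in every library. The host Rptor did not pass the filter, with group means from 2.57 to 12.7 CPM. Zbtb11os1 lies head to head with the zinc-finger factor gene Zbtb11, at chr16:55973268-55974617 (minus strand) against chr16:55973883-56008913 (plus strand), with 489 bases of exon overlap. It was at 45.2, 42.5 and 64.7 CPM in m12_CD and 3.70, 2.46 and 12.5 CPM in m12_WD. That is a log2 fold change of -3.17 (SE 0.548), 9.00-fold lower, with an edgeR adjusted p of 0.000124, again without overlap of the groups. Its host fell too, from 144 ± 68.8 to 57.8 ± 11.3 CPM (SD, n = 3), a log2 fold change of -1.70 with an edgeR adjusted p of 0.000755.

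The most abundant non-coding rows fell as well. Tomm6os was at 4899, 4003 and 4600.0 CPM in m12_CD and 2940.2, 3711 and 3633 CPM in m12_WD, a log2 fold change of -0.85 with an edgeR adjusted p of 0.0108. With library totals and no scaling factors it was -0.36 with an edgeR adjusted p of 0.0945. Its host Tomm6 had a value of 0.19 with an adjusted p of 0.846 in the same fit. Ino80dos was at 1647, 1694 and 1930.0 CPM in m12_CD and 1071, 1112 and 1003 CPM in m12_WD, with a log2 fold change of -1.16 and an edgeR adjusted p of 0.000682. The 3 libraries of each group lay close together and the groups were clearly apart. Ppifos was at 1120.1, 1025 and 1193 against 605, 476 and 457 CPM, a log2 fold change of -1.55 (edgeR adjusted p 0.000411). Scpep1os was at 855, 753 and 825 against 479, 368 and 419 CPM, a log2 fold change of -1.38 (edgeR adjusted p 0.00258). Rab10os, beside a GTPase gene of vesicle transport, fell from 742 ± 33.8 to 471 ± 102 CPM, with -1.08 on the log2 scale, while Rab10 had -0.22 and an edgeR adjusted p of 0.629. Each of these rows had its lowest m12_CD library above its highest m12_WD library.

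A further 6 of the 18 rows are as follows. Mccc1os, beside the gene of the leucine-degrading methylcrotonoyl-CoA carboxylase, went from 425 ± 57.8 to 256 ± 32.2 CPM, and Uckl1os, beside a uridine kinase-like gene, from 337 ± 31.5 to 201 ± 15.2 CPM. Man2c1os and its host, the cytosolic mannosidase gene Man2c1, both fell, with log2 fold changes of -1.16 and -1.56. Tnk2os, inside a tyrosine kinase gene, had -1.48, Frs3os, inside the gene of a growth factor receptor adaptor, had -1.10, and Sorbs2os, inside a cytoskeletal adaptor gene, had -1.24. Sorbs2os went from 114 ± 18.4 to 66.6 ± 21.2 CPM. Of the rows named in this paragraph, Tnk2os and Frs3os had overlapping CPM ranges in the 2 groups.

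The remaining rows that fell were Sp3os, Atxn7l1os2, Ggnbp2os, Ube4bos3 and Toporsos. Sp3os, head to head with the gene of the GC-box factor Sp3, went from 32.9 ± 8.42 to 12.1 ± 6.94 CPM, a log2 fold change of -1.97, while Sp3 had -0.10 with an edgeR adjusted p of 0.925. Atxn7l1os2 went from 72.8 ± 9.79 to 34.6 ± 17.0 CPM and Ggnbp2os from 273 ± 27.8 to 116 ± 38.4 CPM. Ube4bos3, inside the gene of a ubiquitin chain elongation factor, had -0.83 on the log2 scale. Toporsos, the only protein-coding one of the 18, and its host both fell, with -1.63 and -0.82. The other hosts that fell were Plet1 (-1.90), Lpp (-1.39), a focal adhesion gene, and Ccpg1 (-0.75), and the host that rose was Zeb2 (1.28). By position, 8 of 16 tested head-to-head rows fell, 5 of 9 inside the host and 4 of 9 tail to tail, and the 3 medians were -1.01, -1.10 and -1.08.

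Of the 18 calls, 11 held when any 1 of the 6 compared libraries was left out, and the count ranged from 12 (without m12_CD 1) to 18. The calls lost in at least 1 such fit were Atxn7l1os2 (highest adjusted p 0.115, without m12_WD 2), Frs3os (0.342, without m12_CD 2), Sp3os (0.0629, without m12_WD 3), Tnk2os (0.201, without m12_CD 2), Tomm6os (0.0715, without m12_CD 1), Toporsos (0.0609, without m12_WD 2) and Ube4bos3 (0.0914, without m12_WD 3). Among hosts the calls of Ccpg1, Man2c1, Topors and Zeb2 were lost in at least 1 such fit, with highest adjusted p-values of 0.192, 0.278, 0.125 and 0.0575. With library totals and no scaling factors the calls of Atxn7l1os2, Frs3os, Mccc1os, Sorbs2os, Tnk2os, Tomm6os and Ube4bos3 were lost, and so were those of the hosts Ccpg1, Man2c1 and Topors.

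**Figure D2:**
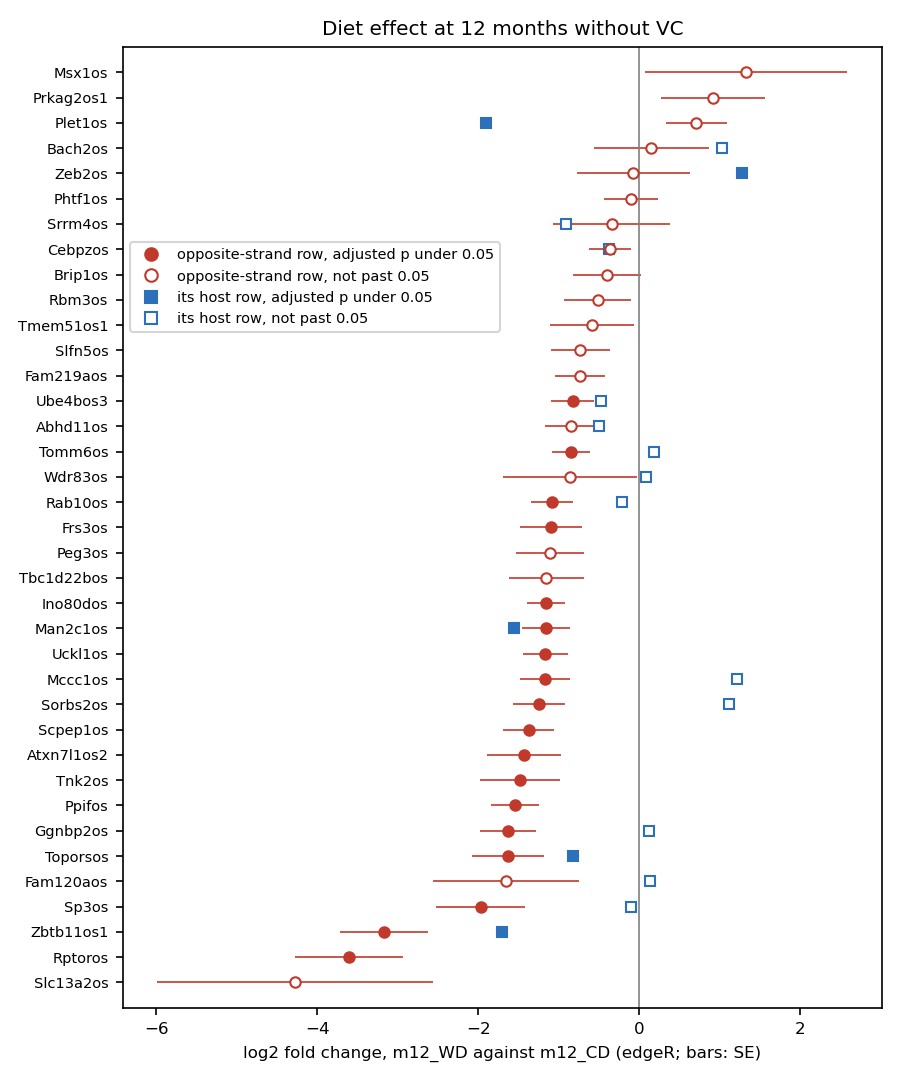
Fitted log2 fold change (horizontal axis) of m12_WD against m12_CD for 37 of the 38 tested opposite-strand rows (red circles with SE bars) and their tested hosts (blue squares), from edgeR, filled where the adjusted p is under 0.05. Of the 37 circles 33 lie left of 0 and 18 are filled. The value of Slc13a2os is not a bound, because its 3 m12_WD libraries were listed at 0.

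The opposite direction was rare among the tested rows. Plet1os was at 114, 91.4 and 122 CPM in m12_CD and 235, 270.1 and 222 CPM in m12_WD, without overlap, yet its fitted log2 fold change of 0.71 did not pass the test (edgeR adjusted p 0.180). The TMM factors make the fitted rise smaller than that of the CPM, and with library totals and no scaling factors it was the 1 row called higher. Prkag2os1, inside the gene of an AMP-activated kinase subunit, had 0.91 with an adjusted p of 0.330, and Msx1os 1.33 with 0.483. Bach2os had 0.15 with 0.906.

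Summed over the 52 rows, opposite-strand CPM were 12942 ± 651 in m12_CD and 9091 ± 412 in m12_WD (SD, n = 3), and host CPM were 3275 ± 188 and 3068 ± 449. The opposite-strand rows took 79.8% ± 0.823 of the counts of the summed pairs in m12_CD and 74.9% ± 1.91 in m12_WD. In the other groups the share lay between 77.7% in m12_WD+VC and 80.2% in w12_CD+VC. Without the Tomm6 pair the shares were 72.2% in m12_CD and 65.1% in m12_WD.

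Rows of cell type markers moved with the diet in the same libraries, and the doubt about strand given above holds for these rows too. The macrophage and Kupffer cell list (12 genes) summed to 66.2 to 134.5 CPM in m12_CD and 603.6 to 854.7 CPM in m12_WD, and 6 of its 9 tested genes rose. The sinusoidal endothelium list (9 genes) summed to 98.3 to 132.5 against 316.4 to 357.4 CPM, with 1 of 3 tested genes higher. The stellate cell and fibroblast list (9 genes) summed to 6.02 to 25.5 against 172.1 to 196.5 CPM, with 3 of 3 tested genes higher. The cholangiocyte list (6 genes, 1 at 0 counts) summed to 0 to 10.3 against 81.4 to 216.1 CPM, with Spp1 as its only tested gene, which rose. Spp1 held 358 counts over the 23 libraries and the next gene, Krt19, held 31. The sum therefore mostly describes Spp1 and not the list. The hepatocyte list summed to 4206 to 13450 against 15670 to 31890 CPM, with 6 of 15 tested genes higher and 1 lower. In bulk tissue fewer cells of a type and less RNA per cell cannot be told apart, and the part of these shifts in the drop of the opposite-strand rows was not tested.

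The genes that remove antisense RNA did not pass the test in that comparison. Of a list of 38 genes of the nuclear exosome, its adaptors and transcription termination, 34 were in the table and 14 were tested, and 0 were called (edgeR), with a median log2 fold change of -0.30. The summed level of the list was 929 to 1110 CPM in m12_CD and 1112 to 1176 CPM in m12_WD. Zc3h18 with 2903 counts and Cpsf3l with 2619 weigh most in that sum. Exosc8, the exosome subunit with most counts, had 282, so the sum does not describe the exosome itself. Between 12 weeks and 12 months on the control diet 2 of its genes fell, the exosome subunit Exosc8 and the exosome helicase Skiv2l2. On the Western diet 1 fell, the exonuclease Xrn2.

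Time on the Western diet without VC gave a similar set of changes, although it shares the m12_WD libraries with the diet comparison. Of the 38 rows 11 fell and 1 rose between w12_WD and m12_WD, where 12.3% of all rows were called, 7.12% as lower and 5.21% as higher. Rows annotated antisense without an os name were called lower in 35.9% and higher in 1.56%, rows with an opposite-strand exon overlap in 10.0% and 2.94%, and rows without one in 5.05% and 6.7%. Rptoros was at 54.7 and 88.5 CPM in the 2 w12_WD libraries, a fitted log2 fold change of -4.03 (edgeR adjusted p 0.000276). Zbtb11os1 was at 52.3 and 73.8 CPM, with -3.27 (edgeR adjusted p 0.000458), and Ino80dos at 2415 and 2353 CPM, with -1.44 (edgeR adjusted p 0.000244). All 3 were higher in each w12_WD library than in each m12_WD library. Peg3os, named after an imprinted zinc-finger gene, went from 99.8 and 95.9 CPM to 33.3, 9.82 and 42.6 CPM, with -1.95 (edgeR adjusted p 0.00452). The other 7 rows that fell had log2 fold changes of -2.21 (Atxn7l1os2), -1.79 (Tnk2os), -1.51 (Ggnbp2os), -1.29 (Slfn5os), -1.14 (Sorbs2os), -1.02 (Uckl1os) and -1.003 (Rab10os). Plet1os was the row that rose, with 1.5 (edgeR adjusted p 0.0373), and its host Plet1 fell, with -1.30 and 0.0497. With 2 libraries in w12_WD the count depended on each of them: it was 5 without w12_WD 2 and 6 without w12_WD 1 or m12_WD 2, and only Atxn7l1os2, Ino80dos, Rptoros and Zbtb11os1 were called in every fit with 1 of the 5 libraries left out. Without the expression filter Ppp1r3fos was also called in this comparison. It held 14 counts in w12_WD and 3 in m12_WD, with group means of 36.6 and 1.85 CPM.

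In the other comparisons of time few rows passed. On control diet and air 1 row was called, where 1.26% of all rows were (0.567% higher, 0.693% lower): Tomm6os rose from 2245, 2132 and 2837 CPM to 4899, 4003 and 4600.0 CPM, a log2 fold change of 1.04 (edgeR adjusted p 0.0222). On control diet after VC 1 row was called, against 4.62% of all rows (1.78% higher, 2.83% lower): Phtf1os went from 513, 227 and 259 CPM to 102, 174 and 245 CPM, with -1.17 (edgeR adjusted p 0.0473), and the 2 groups overlapped. On Western diet after VC 1 row was called, against 0.588% of all rows (0.357% higher, 0.231% lower): Plet1os rose from 31.8, 21.1 and 59.2 CPM to 156, 229 and 198 CPM, with 2.27 (edgeR adjusted p 0.0101). These 3 calls were each lost in some fits with 1 library left out, with highest adjusted p-values of 0.129 (without w12_CD 2), 0.229 (without w12_CD+VC 1) and 0.13 (without m12_WD+VC 2).

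Within 12 weeks no opposite-strand row was called by edgeR or DESeq2, for diet or for VC. At an unadjusted p under 0.05 edgeR gave 1 row for diet without VC, 1 for diet with VC, and 0 for VC on either diet, and in these comparisons 0.021%, 0.42%, 0.0% and 0.021% of all rows were called. The diet by VC interaction at 12 weeks also gave 0 rows by both tools and 0 at an unadjusted p under 0.05, against 0.021% of all rows. At 12 months VC on the control diet gave 0 called rows with edgeR, 11 at an unadjusted p under 0.05 and 2 with DESeq2, where 3.86% of all rows were called. VC on the Western diet gave 0, 9 and 3, against 0.441% of all rows. The diet effect among VC-exposed mice at 12 months gave 0, 2 and 0, against 1.26% of all rows. Each share of all rows in this paragraph is that of edgeR at an adjusted p under 0.05. It cannot be set against counts at an unadjusted p or by DESeq2, whose shares of all rows are not given here.

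The difference between the diet effect with VC and without VC at 12 months was called for 7 rows, all with a positive interaction, and for the host Zbtb11. Of all rows 7.87% were called in this interaction, 3.46% as positive and 4.41% as negative, and of rows annotated antisense without an os name 14.1% were positive and 0.0% negative. Rows with an opposite-strand exon overlap were positive in 5.72% and negative in 1.39%, and rows without one in 1.89% and 6.32%. The all-row split was 165 positive and 210 negative, and 103 and 278 with RLE size factors. The 7 were Rptoros, Zbtb11os1, Ggnbp2os, Man2c1os, Fam219aos, Uckl1os and Rab10os. In m12_WD+VC Rptoros was at 35.3, 29.6 and 28.2 CPM, above each m12_WD library, and in m12_CD+VC at 59.4, 39.6 and 33.8 CPM. Zbtb11os1 was at 28.3, 46.8 and 23.1 CPM in m12_WD+VC and 50.9, 23.8 and 75.5 CPM in m12_CD+VC, so all its m12_WD+VC libraries lay above its m12_WD libraries. The VC effect on Western diet itself had log2 fold changes of 2.66 for Rptoros and 2.23 for Zbtb11os1, with edgeR adjusted p-values of 0.0996 and 0.0708. In the fit of rows with an exon overlap alone the interaction gave 0 called rows, where 2.95% of that fit's rows were called, it gave 0 with library totals and no scaling factors, and it also gave 0 without m12_CD 1, without m12_CD+VC 2 and without m12_WD+VC 3. The count was 1 without m12_WD 2, 2 without m12_CD 3, and 4 without m12_CD 2, m12_WD 1 or m12_WD+VC 2. Of the 15 tested hepatocyte markers 10 were called negative in this interaction and 1 positive. Of the 9 tested macrophage markers 2 were negative, and Spp1 of the cholangiocyte list was negative too. The hepatocyte list was at 10480 to 16870 CPM in m12_WD+VC and 22210 to 46220 CPM in m12_CD+VC. The macrophage list was at 339.3 to 588.2 CPM in m12_WD+VC and 229.0 to 345.3 CPM in m12_CD+VC. The part of these lists in the interaction was not tested.

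**Figure D3:**
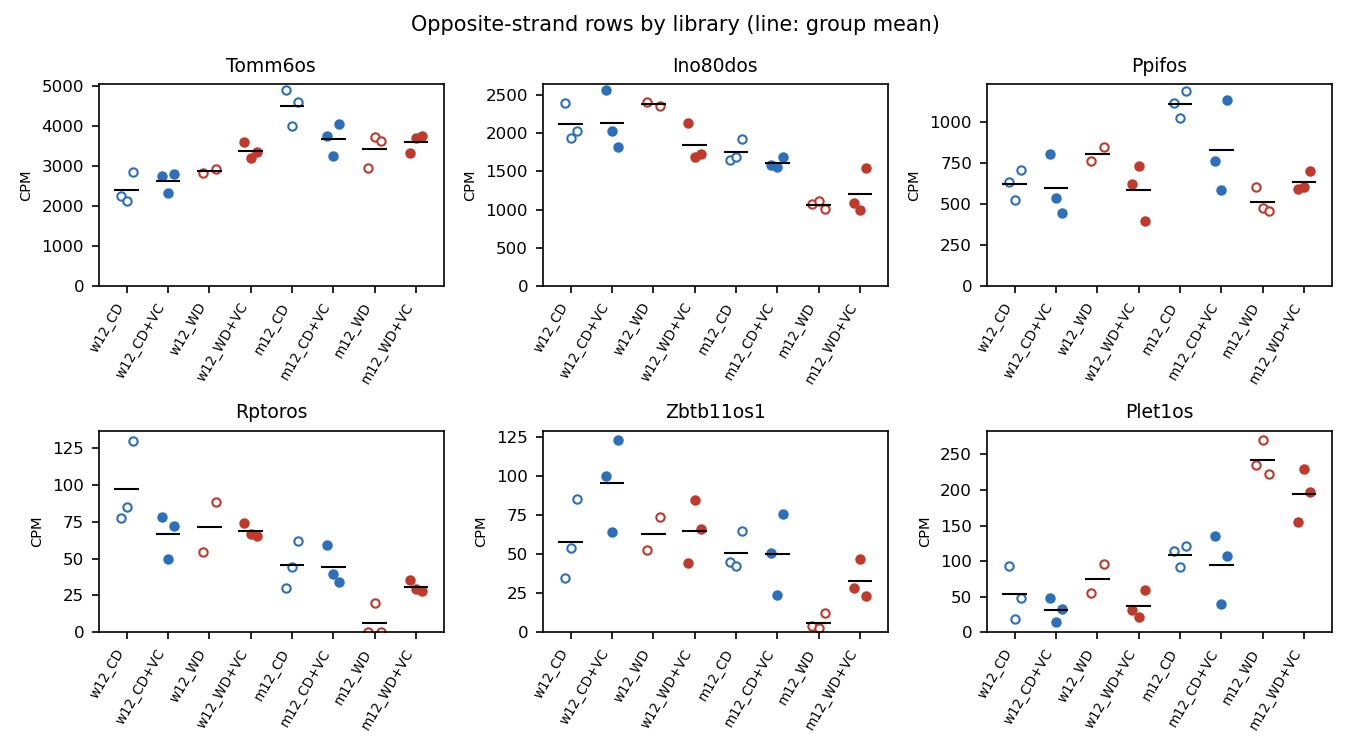
CPM of 6 opposite-strand rows in each of the 23 libraries (points) by group, with the group mean as a line. Blue is the control diet, red the Western diet, and filled points are VC-exposed. The m12_WD points of Rptoros and Zbtb11os1 lie at 19.6 CPM or lower, and those of Plet1os at 222 CPM or higher.

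The ratio of an opposite-strand row to its host within a library does not depend on the scaling between libraries. A test of that ratio over the 8 groups, run on 1563 opposite-strand pairs of the table, called 6 of 43 testable pairs with an os name. The share called over all 1563 pairs was 9.28%. An unadjusted p under 0.05 was found for 13 of the 43 pairs, and no share of all pairs at that threshold is given here. The 9.28% is a share at an adjusted p and cannot be set against these 13 pairs. The 6 pairs were those of Plet1, Zbtb11, Bach2, Zeb2, Scpep1 and Rptor. The calls of the Plet1, Zbtb11 and Bach2 pairs held with any 1 library left out, and those of the Zeb2, Scpep1 and Rptor pairs were lost in some fits, with highest adjusted p-values of 0.0829 (without w12_CD+VC 3), 0.11 (without m12_CD 1) and 0.154 (without m12_WD 1). The count was 3 without w12_CD+VC 2 or m12_WD+VC 2. These statements use edgeR's quasi-likelihood test.

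The Plet1 pair showed the clearest change of ratio. Plet1 encodes a membrane-anchored surface protein of placenta and epithelial progenitors, and lies wholly inside the span of Plet1os (chr9:50488795-50507823, minus strand). Plet1os took 87.6%, 87.3% and 78.4% of the pair's counts in the 3 m12_WD libraries and 84.6%, 84.0% and 74.0% in m12_WD+VC. In m12_CD it took 46.9%, 39.1% and 53.4%, and no library outside the Western diet at 12 months was above 68.6%. The log2 ratio was -0.21 in m12_CD, 2.43 in m12_WD and 2.05 in m12_WD+VC (edgeR adjusted p 0.000240 over the 8 groups). The 2 rows moved in opposite directions in CPM: Plet1 was at 129, 142 and 106 CPM in m12_CD and 33.3, 39.3 and 61.3 CPM in m12_WD, where its drop had a log2 fold change of -1.90 and an edgeR adjusted p of 0.000540.

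In the Zbtb11 pair the share of the opposite-strand row was lowest on the Western diet at 12 months. Zbtb11os1 took 6.45%, 4.76% and 15.0% of the pair's counts in m12_WD, against 39.5%, 21.1% and 24.04% in m12_CD and 37.9% and 41.7% in w12_WD. It took 61.8%, 47.4% and 58.2% in w12_CD+VC, the group with the highest mean. The edgeR adjusted p over the groups was 0.00598. Each m12_WD library lay below every library of the other 7 groups.

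The Bach2 and Zeb2 pairs involve transcription factor genes that are also active in blood cells, Bach2 in B cells and Zeb2 in macrophages. Bach2os took 40.4% ± 8.05 of the pair in w12_CD and 10.7% ± 5.92 in m12_WD (SD, n = 3), with an edgeR adjusted p of 0.00921 over the groups. Zeb2os took 55.6% ± 7.75 in w12_CD+VC and 11.1% ± 7.33 in m12_WD, with 0.0347. The groups set side by side here differ in time and diet, and for Zeb2os also in VC. In m12_CD Bach2os took 30.8%, 5.56% and 16.7% of the pair and Zeb2os 31.6%, 25.0% and 8.70%. For both pairs these shares overlapped those of m12_WD. The Zeb2 row rose on Western diet at 12 months, from 39.1, 44.6 and 54.3 CPM to 102, 145 and 206 CPM, and Bach2 went from 81.3, 72.3 and 25.9 to 176, 147 and 171 CPM without passing the test (edgeR adjusted p 0.0619). Both opposite-strand rows had values near 0 on the log2 scale in that comparison, 0.15 and -0.07. The macrophage markers above moved with the Zeb2 row, and their part in the ratio was not tested.

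Scpep1os took 94.9% or more of its pair in every library, from 97.0% ± 1.72 in m12_WD to 99.8% ± 0.172 in m12_CD (SD, n = 3), and the edgeR adjusted p of 0.0405 rests on 75 host counts in all. Rptoros took 0%, 88.9% and 0% of its pair in m12_WD and 67.9% or more in each library of the other groups, with an edgeR adjusted p of 0.0415. That pair had 29 counts in m12_WD.

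**Figure D4:**
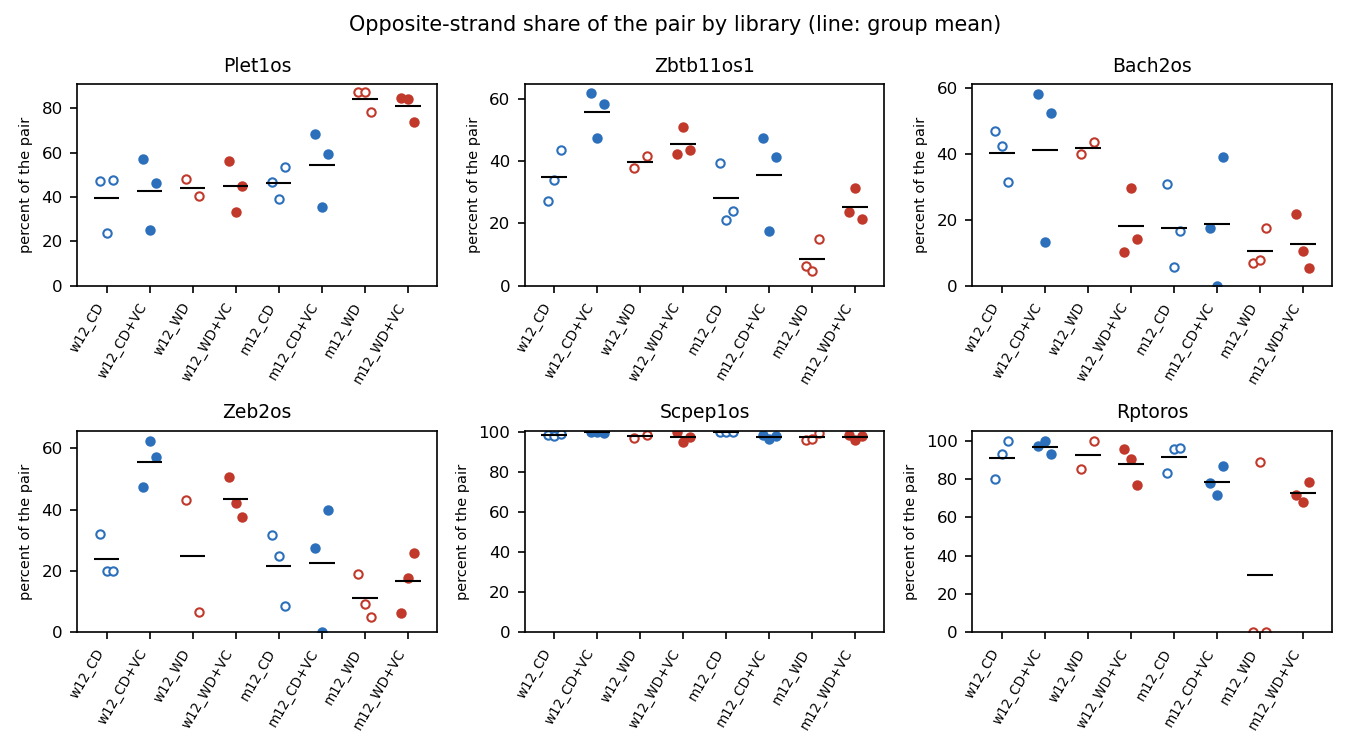
Share of the pair's counts in the opposite-strand row (vertical axis, percent) for the 6 pairs whose ratio differed over the groups, by library (points) with group means (lines). Blue is the control diet, red the Western diet, and filled points are VC-exposed. The m12_WD points of Plet1os lie at 78.4% or higher, and those of Zbtb11os1 at 15.0% or lower.

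Over all 8 groups together 19 of the 38 tested rows differed, against 25.2% of all rows, and 7 of the 22 hosts (Plet1, Zeb2, Lpp, Zbtb11, Man2c1, Bach2 and Ccpg1). Without m12_WD 2 the count was 12. The smallest edgeR adjusted p-values were those of Plet1os (2.55e-05), Peg3os (5.39e-05), Ino80dos (8.90e-05), Zbtb11os1 (0.000103) and Rptoros (0.000115). Of the 19, Phtf1os, Peg3os, Bach2os, Slc13a2os and Plet1os were among those outside the 18 that fell with diet, and Bach2os and Slc13a2os were each lost in 10 or more of 23 fits with 1 library left out. The highest group means of several rows were at 12 weeks. In the order w12_CD, w12_CD+VC, w12_WD, w12_WD+VC, m12_CD, m12_CD+VC, m12_WD, m12_WD+VC, Peg3os had group means of 143, 116, 97.9, 118, 49.1, 56.6, 28.6 and 45.8 CPM and Phtf1os 409, 333, 260.1, 175, 182, 174, 226 and 204 CPM. Peg3os was at 95.1 CPM or higher in every 12-week library and at 72.9 CPM or lower in every 12-month library. Slc13a2os, tail to tail with a dicarboxylate transporter gene, had 26.7, 13.0, 7.13, 4.38, 5.32, 16.0, 0 and 3.92 CPM in the same order, and its 3 m12_WD libraries were listed at 0.

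Group means of the other tested rows, in that order, are given next by level. Among rows of high level, Cebpzos had 527, 621, 525, 483, 471, 401, 499 and 495 CPM, Ube4bos3 421, 363, 371, 388, 355, 329, 268 and 312 CPM and Mccc1os 215, 338, 391, 448, 425, 405, 256 and 302 CPM. Rab10os had 586, 701, 784, 696, 742, 621, 471 and 666 CPM and Uckl1os 321, 319, 340.1, 329.8, 337, 239.6, 201 and 260.4 CPM. Cebpzos did not pass any test of the 8 groups or of a contrast. Fam219aos had 219, 214, 214, 205, 248, 166, 199 and 285 CPM, Man2c1os 242, 203, 204, 255, 244, 163, 145 and 202 CPM and Ggnbp2os 195, 209, 282, 307, 273, 255, 116 and 248 CPM. Abhd11os, tail to tail with a mitochondrial hydrolase gene, had 211, 209, 161, 159, 171, 168, 128 and 213 CPM. Rbm3os, head to head with the gene of a cold-induced RNA-binding protein, had 112, 95.1, 94.5, 98.7, 245, 159, 229 and 162 CPM with the highest means in the air groups at 12 months and no call. For Fam219aos, Man2c1os and Uckl1os the lowest mean was in m12_CD+VC or m12_WD.

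Rows of middle level included Sorbs2os with 169, 141, 118, 149.8, 114, 136, 66.6 and 114 CPM, Brip1os, beside a DNA helicase gene, with 98.3, 109.7, 123, 94.0, 68.1, 82.9, 67.8 and 82.1 CPM and Frs3os with 111, 85.9, 98.0, 73.0, 109, 96.5, 69.2 and 110.1 CPM. Atxn7l1os2 had 99.1, 113, 140.3, 67.8, 72.8, 69.7, 34.6 and 53.8 CPM, Slfn5os 78.5, 76.6, 89.4, 63.4, 54.6, 70.9, 43.7 and 108 CPM and Toporsos 74.9, 52.3, 55.3, 65.1, 70.0, 64.0, 28.3 and 49.7 CPM. In each of these 6 rows m12_WD was the lowest group. Tnk2os had 61.3, 48.0, 56.8, 45.2, 40.7, 38.4, 18.4 and 35.9 CPM, Tbc1d22bos 45.0, 38.4, 43.4, 43.1, 41.5, 29.9, 24.1 and 26.4 CPM and Tmem51os1 14.0, 27.0, 15.6, 15.7, 33.6, 33.1, 29.2 and 36.9 CPM. Sp3os had 24.2, 34.3, 32.6, 44.1, 32.9, 42.8, 12.1 and 25.4 CPM and Bach2os 54.0, 69.6, 59.1, 31.7, 15.2, 24.3, 20.5 and 25.2 CPM. Zeb2os had 18.9, 35.9, 26.3, 38.9, 12.7, 29.0, 16.4 and 33.0 CPM and Srrm4os, beside a neuronal splicing factor gene, 19.6, 51.1, 26.4, 23.5, 18.9, 16.1, 21.1 and 15.8 CPM. At the low end, where 1 count is worth 1.04 to 7.93 CPM, Prkag2os1 had 14.5, 11.4, 7.25, 10.8, 16.4, 6.19, 42.2 and 12.4 CPM, Wdr83os 7.86, 16.3, 7.25, 15.7, 16.1, 24.7, 13.1 and 14.9 CPM, Fam120aos 11.8, 18.6, 5.94, 14.6, 13.9, 15.4, 4.97 and 7.98 CPM and Msx1os 10.7, 20.1, 18.3, 3.52, 1.71, 7.28, 6.91 and 7.86 CPM.

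Among the hosts, Cebpz, Topors, Ccpg1 and Lpp had the highest CPM, and in m12_CD these 4 averaged 884, 435, 432 and 503 CPM. Rab10 averaged 162 CPM in m12_CD and 185 CPM in m12_WD, and Wdr83 103 and 147 CPM, without a call for either. Of the 52 hosts 22 passed the filter, and in 19 pairs both rows passed.

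The 14 rows that did not pass the filter held 26 to 100 counts each over 23 libraries and were not tested. Fbxl12os had 100 counts, Far1os 95, Slc7a6os 88, Zfp85os 75, Ppp1r3fos 71 and Arhgap15os 56. Fbxl12os averaged 2.57 CPM in m12_CD and 14.8 CPM in m12_WD, and Far1os 5.44 and 14.5 CPM. Arhgap15os averaged 2.43 and 13.1 CPM. Slc7a6os, Tmem150cos, Epb4.1l4aos, Slain1os, Ccpg1os and Dnmt3aos also had a higher mean in m12_WD than in m12_CD. Zfp85os, Ppp1r3fos, Lppos, Chn1os3 and Gata5os had a lower one. All these means rest on few counts. Slc7a6os averaged 19.98 CPM in w12_CD and 17.0 CPM or less in the other groups, and Zfp85os 15.5 CPM in w12_CD and 12.3 CPM or less elsewhere. Of the 26 counts of Ccpg1os, 24 were in the library m12_WD 3. Dnmt3aos and Gata5os had group means of at most 4.34 and 9.75 CPM. The remaining 5 rows (Tmem150cos, Lppos, Epb4.1l4aos, Slain1os and Chn1os3) had group means of at most 14.1 CPM.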

How the data were processed

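Total RNA of mouse liver was depleted of ribosomal RNA and read on a HiSeq2500 instrument, as the labels' protocols state. The submitters' processing notes name the mm10 build, HTSeq 0.11.2, HISAT2 2.1.0 and Trimmomatic 0.38. The annotation, the strand setting and any filters are stated in none of the sources used here. The authors deposited a table of raw counts per gene symbol, and all tests used it. They also deposited log2 values for each library. Recomputing these from the counts as the log2 of a count over its size factor plus 1 left 0 values off by over 1e-06. No entry named no gene.

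The members and lists were chosen with earlier results of these data known. Values are given for every member that passed the filter with its host, for the 6 others with most counts, for members called without the filter, and for 3 rows on each side of the minimum, except 1 tested row that is not reported here. Symbols were placed on GENCODE M21 by symbol (23334 rows) or RefSeq synonym (649), 98.2% of all rows.

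One edgeR 4.0.16 model in R 4.3.3 with TMM scaling and the 8 groups was fitted to 23 libraries and the 4764 rows past edgeR's expression filter, with quasi-likelihood tests and Benjamini-Hochberg adjustment at 0.05. The common biological coefficient of variation was 0.325. The pair test compared both rows of a pair within each library, for opposite-strand pairs with at least 50 counts and 10 in each row. The scripts were tested on simulated data. The chi-square of replicate pairs was 2.41 to 10.59 times its degrees of freedom, above counting noise, and 0 pairs were identical. Alternatives were 24 libraries, RLE size factors, no filter, DESeq2 1.42.0, the compared groups alone, a replicate block, leaving out each library, lower pair minimums (20 counts, 3 in a row), pairs with no exon overlap, member minimums of 50 and 10, leaving out the pair with most counts and, chosen after seeing the data, rows with an opposite-strand exon overlap alone and library totals with no scaling factors.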

Additional observations from a re-analysis of the deposited data

Results flagged for a closer look

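The diet effect at 12 months differed between mice with and without VC for 7 opposite-strand rows and 1 host, by edgeR's test of the interaction. The values are the log2 diet effect with VC minus that without VC. They were 3.07 for Rptoros (adjusted p 0.0327), 2.51 for Zbtb11os1 (0.0348), 1.79 for its host Zbtb11 (0.0298) and 1.61 for Ggnbp2os (0.0413), all adjusted p-values from edgeR. They were 1.51 for Man2c1os (0.0307), 1.5 for Fam219aos (0.0341), 1.29 for Uckl1os (0.0421) and 1.22 for Rab10os (0.0359), from the same fit.

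The 2 diet effects behind each value differ in size. For Rptoros the log2 diet effect was -3.61 without VC and -0.53 with VC, for Zbtb11os1 -3.17 and -0.66, and for Ggnbp2os -1.63 and -0.02. For Fam219aos it was -0.74 and 0.77, with CPM of 249.9, 261 and 233 in m12_CD, 238, 79.3 and 179.6 in m12_CD+VC, 233, 167 and 197 in m12_WD and 219, 301 and 334 in m12_WD+VC. Each of these 8 calls was lost in at least 4 of the 12 fits with 1 library left out, and the 7 of opposite-strand rows were not called among rows with an exon overlap alone. With library totals and no scaling factors none of the 8 was called by edgeR, with adjusted p-values from 0.06903 (Zbtb11os1) to 0.1349 (Rab10os).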

How the results depend on the processing

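No named call with a log2 fold change reversed its direction in the alternatives or with 1 library left out. Calls that were only lost do not count as reversed. The calls of the 8-group test and of the pair ratio have an adjusted p and no direction, so they could not reverse. Of 75 named calls, 30 held in every fit with 1 library left out, and 40 with library totals and no scaling factors. The count of opposite-strand rows called for diet at 12 months without VC was 12 to 19 under all 8 alternatives, and 12 to 18 with 1 library left out. The ranges with 1 library left out were 12 to 21 for the 8-group test, 5 to 12 for time on Western diet and air, 0 to 9 for the diet by VC interaction at 12 months, 3 to 9 for the pair ratio, 0 to 3 for VC on control diet at 12 months, 0 to 1 for VC on Western diet at 12 months, 0 to 3 for time on control diet and air, and 0 to 2 for time after VC on either diet. They were 0 to 0 for the comparisons within 12 weeks and for diet with VC at 12 months.

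Small counts depended on the setting, and the cause was not tested. VC on control diet at 12 months gave 0 rows, 2 with DESeq2 and 1 with the replicate block. VC on Western diet at 12 months gave 0, 2 with no filter, 3 with DESeq2, 1 with the block, 2 with overlap rows alone and 1 with 24 libraries. Time on control diet and air gave 1, 2 with RLE, 0 with no filter, 6 with DESeq2, 2 with the compared groups alone, 3 with the block, 6 with overlap rows alone and 2 with no scaling factors. Time on control diet after VC gave 1, 0 with RLE, 0 with no scaling factors, 5 with DESeq2, 0 with the compared groups alone, 2 with the block, 2 with overlap rows alone and 0 with 24 libraries. Time on Western diet after VC gave 1, 2 with RLE, 2 with no filter, 3 with DESeq2, 4 with the compared groups alone, 2 with the block, 3 with overlap rows alone and 2 with 24 libraries. The interaction at 12 months gave 7, 3 with the compared groups alone (fewer rows tested), 0 with overlap rows alone and 0 with no scaling factors. The 8-group test gave 13 and time on Western diet and air 8 with no scaling factors, against 26% and 11.4% of all rows. With overlap rows alone 1.15% of the fit's rows were called for VC on Western diet at 12 months. For time on control diet and air it was 4.1%, for time after VC 5.69% on the control diet and 3.28% on the Western diet. Shares of all rows in the other settings are not given here. The pair ratio gave 6, and 1 in pairs with no exon overlap, of which 7 were testable.

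Without the Tomm6 pair the summed opposite-strand share was 73.89% in w12_CD, 75.50% in w12_CD+VC, 74.57% in w12_WD, 72.92% in w12_WD+VC, 72.15% in m12_CD, and 71.68% after VC, 65.15% in m12_WD, and 69.73% after VC. With the Tomm6 pair the share in w12_WD was 79.52%, and 86.35% when the library of 607 counts was included. A minimum of 50 counts gave 45 rows and of 10 gave 62.

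Equal replicate numbers did not pair the libraries: their deviations from group means had a median r of 0.00146 over 77 pairs, with 16 over 0.1, and 5 of 23 libraries correlated best with their own number. With the replicate block the diet comparison gave 19 rows, the 8-group test 18, time on Western diet and air 16, the interaction 7 and the pair ratio 8. Depth kept 14 rows with 26 to 100 counts out of the tests.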
